A study of Mus musculus with 8 samples.

Results

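The Eph receptors and ephrins described here were 10 genes of the deposited RNA-seq table, namely the receptors *Epha1*, *Epha2*, *Epha4*, *Ephb2*, *Ephb3* and *Ephb4* and the ligands *Efna1*, *Efna4*, *Efnb1* and *Efnb2*. They were taken by name from 50600 rows, and each name was found in 1 row. The cells were mouse embryonic stem cells (ESCs) of the OG2 line, passage 12, of mixed 129SVJ, C57B6 and CBA background, which carry a doxycycline-inducible c-Jun (JUN TetON) and were grown without feeders in serum with LIF and the 2i inhibitors PD0325901 and Chir99021. All 8 libraries came from cells given 2 µg/ml doxycycline, so JUN was induced in every group and no uninduced library entered the comparisons. The labels give a time of 6 h for all libraries. A legend of the study gives a longer induction of JUN, with 6 h of compound, so the length of induction is not settled. The 4 groups, with 2 libraries each, received for 6 h DMSO (the solvent control), PFI-3 (an inhibitor of the bromodomain of BRG1, the ATPase of the BAF chromatin remodelling complexes), BI-9564 (an inhibitor of the bromodomains of BRD9 and BRD7, subunits of BAF subtypes) or both compounds (P+B). The labels do not give the compound doses. For their colony assay the authors used a lower dose of each compound in P+B than alone. Comparisons of P+B with the single compounds, or with their sum, may therefore also differ in dose. The labels also do not say whether the 2 libraries of a group came from separate cultures, so the p-values measure the spread between libraries, which may be technical.

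Eph receptors are receptor tyrosine kinases that bind ephrins on neighbouring cells, and the pair signals both into the cell with the receptor (forward) and into the cell with the ligand (reverse). EphA receptors mainly bind ephrin-A ligands, which are held in the membrane by a lipid anchor, whereas EphB receptors mainly bind ephrin-B ligands, which cross the membrane and end in a tail that binds PDZ proteins. The outcome is often repulsion or sorting of cells at boundaries, through Src and Abl family kinases and other signals that act on the cytoskeleton.

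The values are TPM, a relative measure that adjusts for transcript length and library size, in whole numbers. *Epha2* was the most abundant of the 10 genes, with a mean of 111 TPM over the 8 libraries, and its range of 87 to 131 lay above every other member. *Epha4* followed at a mean of 28.5 TPM (23 to 37), a range that met those of *Ephb4* (16 to 23) and *Efnb2* (8 to 25). *Ephb4* (mean 19.3), *Ephb3* (18.0), *Efnb2* (16.6) and *Efna4* (16.0) came next, and their ranges overlapped, so that their order is not larger than the spread between libraries. *Ephb2* (mean 7.88, 4 to 15) and *Epha1* (mean 6.0, 4 to 11) had lower means and overlapped each other. Their ranges also met that of *Efnb2*, and the range of *Ephb2* met that of *Efna4* (12 to 22). The ligands *Efna1* (1 to 4 TPM) and *Efnb1* (0 to 2 TPM) had the lowest means and overlapped each other.

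**Figure D1:**
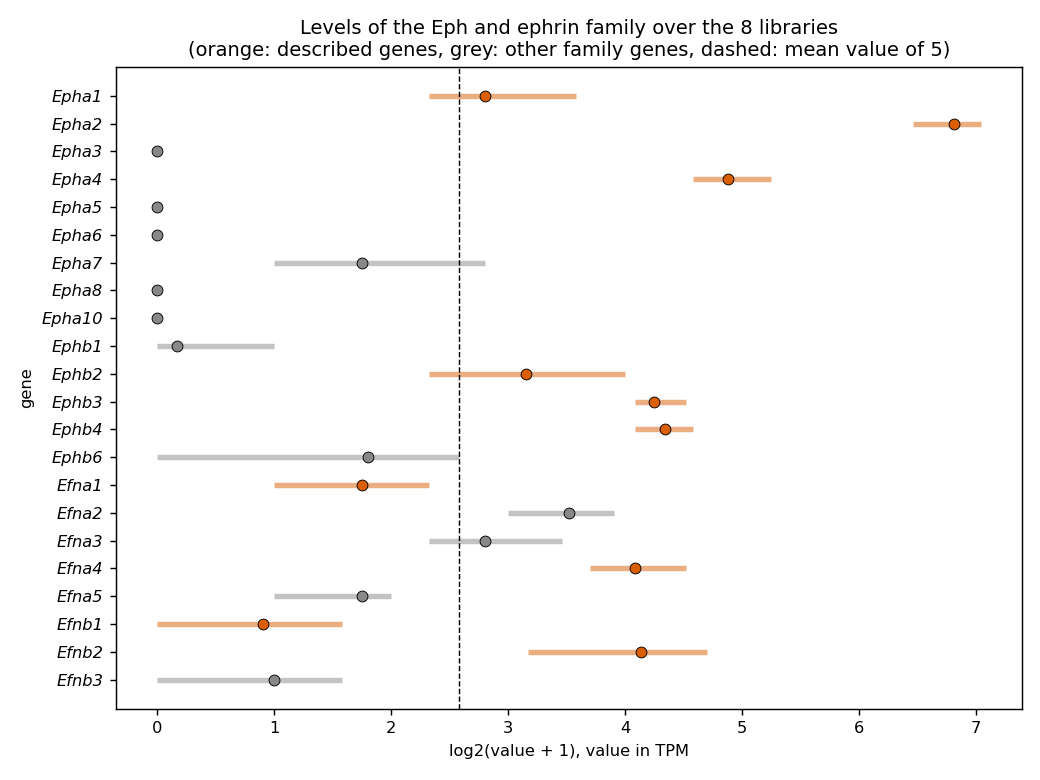
Levels of the 22 Eph and ephrin genes over the 8 libraries on a log2(value + 1) axis (values in TPM), with a bar from the lowest to the highest library, a point at the mean, orange for the 10 genes described and a dashed line at the mean of 5 TPM required for testing. *Epha2* spans 87 to 131 TPM, apart from the other members.

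The mouse family in the table held 12 further genes, and of these *Efna2* (7 to 14 TPM) and *Efna3* (4 to 10 TPM) reached the mean of 5 TPM that was required for testing. *Epha3*, *Epha5*, *Epha6*, *Epha8* and *Epha10* were listed at 0 in all 8 libraries. Of the 10 members, 8 passed this requirement. *Efna1* and *Efnb1* did not.

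The promoters of the 3 members on which the results turn are shown, since the induced factor JUN binds AP-1 sites (TGANTCA) and CRE sites (TGACGTCA). They are the 250 bases before the RefSeq gene start on GRCm38.p6, 5′ to 3′ on the strand of the gene, read from RefSeq sequence, with capitals marking matches to CRE or to the TEAD motif GGAATG on either strand. *Epha2* is at chr4:141300971-141301220 (plus strand), *Ephb2* at chr4:136836013-136836262 (minus strand) and *Efnb2* at chr8:8661243-8661492 (minus strand).
Epha2: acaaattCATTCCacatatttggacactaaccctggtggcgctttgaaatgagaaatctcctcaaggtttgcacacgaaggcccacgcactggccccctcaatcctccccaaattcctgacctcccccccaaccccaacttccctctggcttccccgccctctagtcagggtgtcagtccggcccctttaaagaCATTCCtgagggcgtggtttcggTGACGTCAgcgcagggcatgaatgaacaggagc
Ephb2: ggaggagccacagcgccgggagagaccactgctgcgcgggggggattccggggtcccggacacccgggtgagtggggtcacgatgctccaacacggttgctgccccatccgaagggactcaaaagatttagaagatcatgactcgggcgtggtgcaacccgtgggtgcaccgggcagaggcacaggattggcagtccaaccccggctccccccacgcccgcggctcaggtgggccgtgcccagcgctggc
Efnb2: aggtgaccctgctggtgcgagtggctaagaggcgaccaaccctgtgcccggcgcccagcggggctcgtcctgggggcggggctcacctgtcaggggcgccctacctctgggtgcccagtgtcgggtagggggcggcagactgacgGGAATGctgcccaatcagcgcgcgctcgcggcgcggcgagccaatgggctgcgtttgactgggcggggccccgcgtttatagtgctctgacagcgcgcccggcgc

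AP-1 letters were in none of the 11 windows that matched the 10 members, whereas 6.75% of all 32851 windows of this length held them. The CRE match in *Epha2* began 33 bases before the start, and 1.55% of all windows held one. TEAD letters began 243 and 56 bases before the start of *Epha2*, 105 before that of *Efnb2* and 161 before that of *Epha1*, against 12.6% of all windows. The ETS motif CCGGAAG was in none of the member windows and in 6.91% of all. The motifs were chosen with the values known. A match describes letters only, and the absence of a match says nothing on binding elsewhere. The genes themselves span chr4:141301240-141329384 for *Epha2*, chr4:136647539-136835988 for *Ephb2* and chr8:8617434-8661242 for *Efnb2* (GENCODE M21 on GRCm38). No other annotated gene overlaps *Epha2* or *Ephb2*, and 3 genes of the type TEC (to be experimentally checked) on the same strand overlap *Efnb2*. The member windows had a median GC content of 64.4%, against 52.4% for all windows.

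Differences were tested with limma on log2(value + 1) in 10222 genes, with all 4 groups in the fit. To be called, a gene needed a Benjamini-Hochberg adjusted p under 0.05 together with a change of 1.5-fold or more. Without a block for the replicate number, no member was called in P+B against DMSO, where 4.0% of all tested genes were called. These were 409 genes, of which 131 (1.28% of those tested) were higher and 278 (2.72%) lower, a split that became 86 and 401 when each library was centred on its median, and 2306 genes had an unadjusted p under 0.05. No member was called either in PFI-3 against DMSO (0% of genes called, 694 at an unadjusted p under 0.05), BI-9564 against DMSO (0.108%), P+B against PFI-3 (1.31%), P+B against BI-9564 (0.196%) or BI-9564 against PFI-3 (0.108%), or in the departure of P+B from the sum of the single compounds (0%, with 333 genes at an unadjusted p under 0.05). With the replicate number as a block, *Ephb2* was called in P+B against DMSO (limma adjusted p = 0.0373), as were 7.02% of tested genes. The block also called *Efnb2* in BI-9564 against PFI-3 (limma adjusted p = 0.0449), as it did 1.48% of tested genes. No other member was called in these comparisons. The comparisons with DMSO share its 2 libraries. For any one gene, 2 libraries against 2 allow an exact permutation p of 0.333 at the lowest.

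The EphA receptors were led by *Epha2*, a receptor for ephrin-A1 that is abundant in epithelia. Its values were 131 and 114 TPM under DMSO, 123 and 104 under PFI-3, 127 and 113 under BI-9564 and 91 and 87 under P+B. Both P+B libraries were below the other 6, while the 3 other groups overlapped. The share of all tested genes with this split was not computed, and P+B lay below DMSO alone in 18.9% of them. The means were 123 ± 12 TPM (SD, n = 2) with DMSO and 89.0 ± 2.83 (SD, n = 2) with P+B. On the log2(value + 1) scale P+B differed from DMSO by -0.45 (SE 0.12, 95% interval -0.73 to -0.18, limma adjusted p = 0.0723), from PFI-3 by -0.34 (adjusted p = 0.210) and from BI-9564 by -0.42 (adjusted p = 0.381). With the replicate number as a block the limma adjusted p against DMSO was 0.0114 and that against PFI-3 was 0.0469, while that against BI-9564 was 0.0601. The fold of 0.730 against DMSO was smaller than the 1.5-fold required for a call. Neither single compound moved *Epha2* detectably, with differences from DMSO of -0.11 (95% interval -0.39 to 0.17) for PFI-3 and -0.03 (-0.31 to 0.25) for BI-9564. The departure of P+B from the sum of the single compounds was -0.31 (SE 0.17, limma adjusted p = 1.0), so an excess of the pair over that sum was not shown. This comparison takes the doses alone and in the pair to be equal, which is not known.

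*Epha4*, a receptor known for axon guidance that binds ligands of both classes, had 37 and 28 TPM under DMSO, 37 and 26 under PFI-3, 30 and 23 under BI-9564 and 24 and 23 under P+B. The P+B libraries lay below those with DMSO or PFI-3 and overlapped those with BI-9564. Among all tested genes P+B lay below DMSO in 18.9% and below PFI-3 in 18.9%. For *Epha4* the difference of P+B from DMSO was -0.44 (SE 0.22, limma adjusted p = 0.280). Replicate 1 was above replicate 2 in all 4 groups for *Epha2* and *Epha4*, as it was for 12.8% of tested genes. *Epha1*, the founding member of the family, had 7 and 5 TPM under DMSO, 5 and 4 under PFI-3, 5 and 6 under BI-9564 and 5 and 11 under P+B, and the groups overlapped. P+B differed from DMSO by 0.29 (95% interval -0.59 to 1.18), a difference that turned to -0.21 without P+B replicate 2. Its locus overlaps *Zyx* on the other strand, and whether the counting used strand is not stated in the sources used here.

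**Figure D2:**
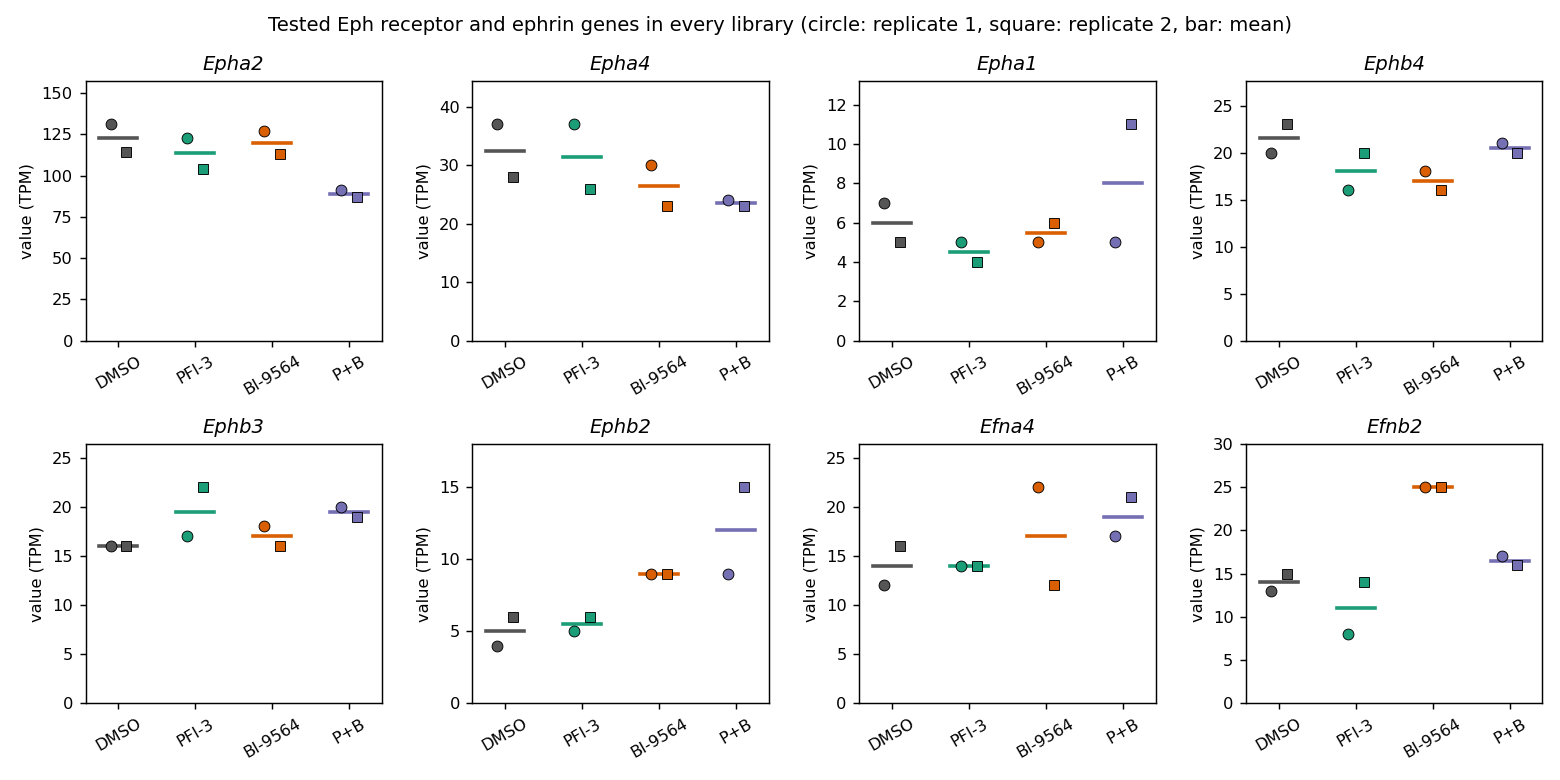
Value of each of the 8 tested members in every library (TPM, vertical axis from 0), by treatment, with circles for replicate 1, squares for replicate 2 and bars for the mean. The P+B values of *Epha2*, 91 and 87 TPM, lie below the other 6 libraries, a split whose share of tested genes was not computed. *Ephb2* and *Efnb2* are higher in all libraries with BI-9564 than in those without, as for 7.78% of tested genes.

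Among the EphB receptors, *Ephb2*, which with *Ephb3* positions cells along the intestinal crypt and is a target of Wnt signalling there, had the largest difference. Its values were 4 and 6 TPM under DMSO, 5 and 6 under PFI-3, 9 and 9 under BI-9564 and 9 and 15 under P+B. All 4 libraries that received BI-9564 were above the 4 that did not, as for 7.78% of all tested genes. The means were 5.0 ± 1.41 TPM with DMSO and 12 ± 4.24 with P+B (SD, n = 2). P+B differed from DMSO by 1.10 on the log2(value + 1) scale, a fold of 2.14 (SE 0.31, 95% interval 0.38 to 1.81), which did not pass the threshold (limma adjusted p = 0.0872). With the replicate block it did (SE 0.26, limma adjusted p = 0.0373), where 7.02% of all tested genes were called. Within replicate numbers the ratio of P+B to DMSO was 2.25 and 2.5. BI-9564 differed from DMSO by 0.76 (limma adjusted p = 0.316), and P+B differed from BI-9564 by 0.34 (95% interval -0.38 to 1.06). The values are whole numbers near the lower end of what was tested, so a step of 1 TPM is large beside them.

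*Ephb3* ranged from 16 to 22 TPM and *Ephb4*, the main receptor for ephrin-B2 in vein formation, from 16 to 23 TPM. *Ephb3* had 16 TPM in both DMSO libraries, 17 and 22 under PFI-3, 18 and 16 under BI-9564 and 20 and 19 under P+B. *Ephb4* had 20 and 23 TPM under DMSO, 16 and 20 under PFI-3, 18 and 16 under BI-9564 and 21 and 20 under P+B. The ranges of the 4 groups lay close together for both receptors. P+B differed from DMSO by 0.27 (95% interval -0.13 to 0.67) for *Ephb3* and by -0.06 (-0.46 to 0.33) for *Ephb4*. For *Ephb4* the difference from the sum of the single compounds was 0.51 (SE 0.24, limma adjusted p = 1.0), since both single compounds had lower means (18.0 and 17.0 TPM) than DMSO (21.5) or P+B (20.5). *Ephb4* overlaps *Zan* on the other strand.

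Of the ligands, *Efnb2*, the transmembrane partner of EphB4 in artery formation, differed most. It had 13 and 15 TPM under DMSO, 8 and 14 under PFI-3, 25 and 25 under BI-9564 and 17 and 16 under P+B. BI-9564 alone gave the highest values, P+B lay between them and the rest, and DMSO and PFI-3 overlapped. Libraries with BI-9564 alone lay above DMSO in 22.9% of tested genes and above PFI-3 in 20.5%. P+B lay below BI-9564 alone in 13.7%. The share with the whole order of *Efnb2* was not computed. BI-9564 differed from DMSO by 0.80 (SE 0.24, limma adjusted p = 0.203) and from PFI-3 by 1.16, a fold of 2.24 (SE 0.24, 95% interval 0.60 to 1.72, limma adjusted p = 0.116). The latter passed with the replicate block (SE 0.22, limma adjusted p = 0.0449), where 1.48% of tested genes were called. The difference was 0.79 without the PFI-3 library at 8 TPM and 1.53 without the other PFI-3 library. P+B was lower than BI-9564 by a difference of -0.57 (limma adjusted p = 0.605) and stood at 0.23 against DMSO (95% interval -0.33 to 0.78).

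*Efna4*, a lipid-anchored ligand, had 12 and 16 TPM under DMSO, 14 and 14 under PFI-3, 22 and 12 under BI-9564 and 17 and 21 under P+B. The 2 BI-9564 libraries span the whole range of the gene, and P+B differed from DMSO by 0.42 (SE 0.28, limma adjusted p = 0.418). *Efna4* has the antisense gene *4731419I09Rik* at its locus. *Efna1*, the main ligand of EphA2, had 3 and 2 TPM under DMSO, 4 and 2 under PFI-3, 2 and 3 under BI-9564 and 2 and 1 under P+B. *Efnb1*, an X-linked ligand that acts in craniofacial patterning, had 0 and 1, 1 and 0, 0 and 2, and 2 and 1 TPM in the same order of groups. Both were below the mean of 5 TPM required for testing. With that requirement lowered to 1 TPM, *Efna1* in P+B against DMSO stood at -0.50 (SE 0.43, limma adjusted p = 0.563), and *Efnb1* was still below it. Depth is unknown, because TPM keeps no counts.

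**Figure D3:**
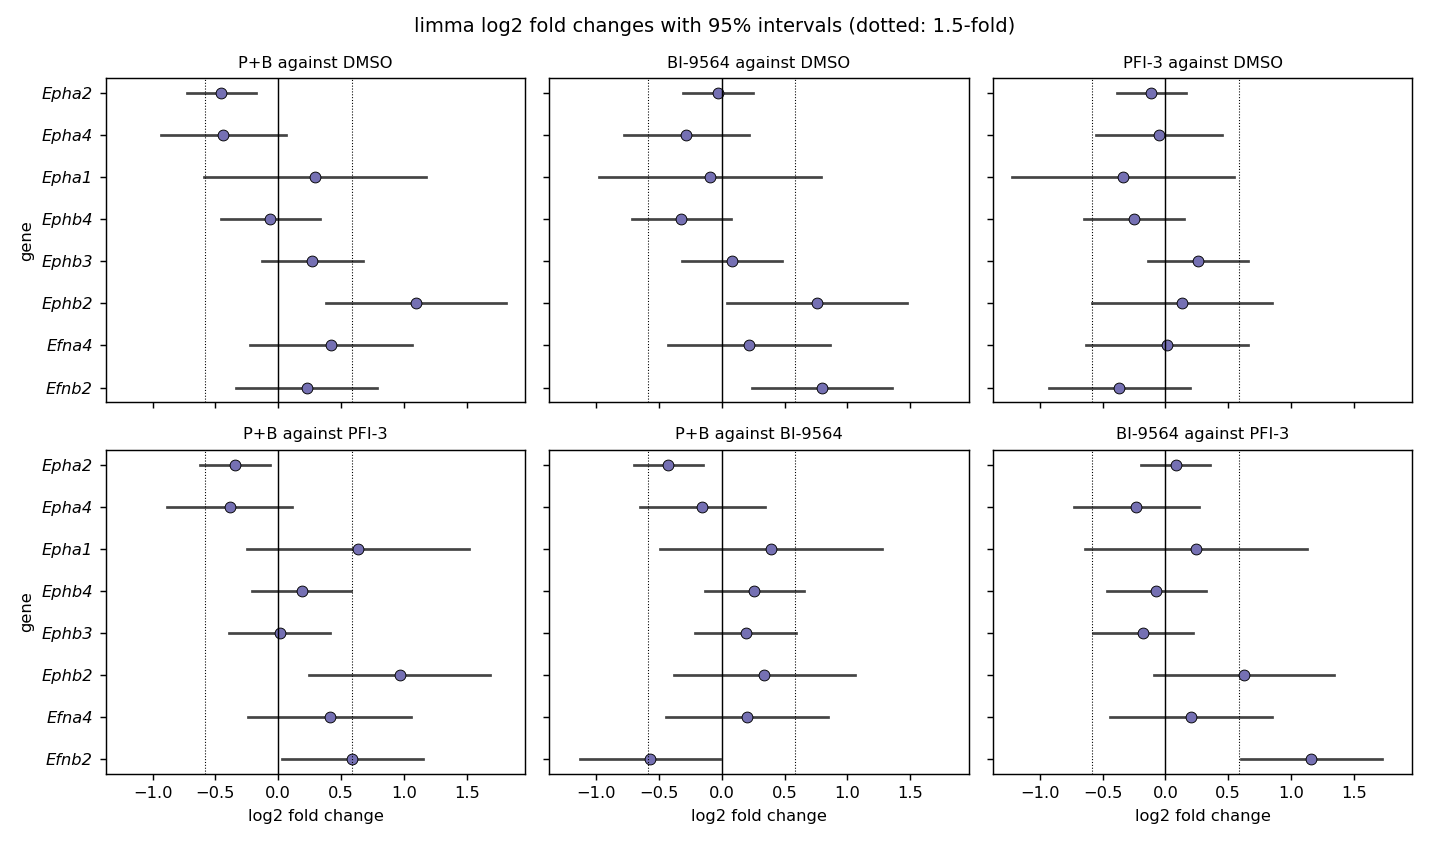
Log2 fold changes of the 8 tested members on the log2(value + 1) scale with 95% intervals, by comparison, with dotted lines at 1.5-fold. *Ephb2* stands at 1.10 and *Epha2* at -0.45 in P+B against DMSO, and *Efnb2* at 1.16 in BI-9564 against PFI-3.

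The members differed in direction. In P+B against DMSO 5 of the 8 were higher and 3 lower, with a median log2 fold change of 0.25 beside 0.06 over all tested genes. The median was -0.08 with PFI-3 (all genes 0.02) and 0.03 with BI-9564 (all genes 0.02). Libraries did not overlap between P+B and DMSO for *Ephb2*, *Ephb3*, *Efna4* and *Efnb2* (higher) and *Epha2* and *Epha4* (lower). Among all tested genes this held for 28.6% in the higher and 18.9% in the lower direction. In BI-9564 against DMSO it held for *Ephb2* and *Efnb2* (higher, 22.9% of genes) and *Ephb4* (lower, 18.3%), and in PFI-3 against DMSO for *Ephb3* (higher, 16.5%). The summed level of all EphA receptors, most of it *Epha2*, was 148 to 176 TPM with DMSO, 135 to 166 with PFI-3, 148 to 163 with BI-9564 and 122 to 127 with P+B. In the same order of groups, EphB receptors summed to 40 to 47, 39 to 49, 46 to 49 and 52 to 60 TPM. Ephrin-A ligands summed to 33 to 37, 37 to 37, 33 to 49 and 36 to 36 TPM. The ephrin-B ligands, mostly *Efnb2*, summed to 14 to 17, 10 to 15, 26 to 27 and 18 to 21 TPM.

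A contrast added after the values were seen compared the 4 libraries with BI-9564 with the 4 without. *Ephb2* differed by 0.86 (SE 0.22, limma adjusted p = 0.0560) and *Efnb2* by 0.69 (SE 0.17, limma adjusted p = 0.0512), and neither passed, with 3.19% of genes called. With the replicate block both did (limma adjusted p = 0.0225 and 0.0268), where 4.95% of genes were called. These 2 members were also the ones whose libraries did not overlap, as for 7.78% of tested genes in the higher direction. The contrast was chosen for this pattern, so its values are a description. In the counterpart for PFI-3, added in the same way, in which 0.323% of genes were called and no member, *Epha2* stood at -0.27 (SE 0.09, limma adjusted p = 0.294) and *Efnb2* at -0.47 (SE 0.17, limma adjusted p = 0.369).

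**Figure D4:**
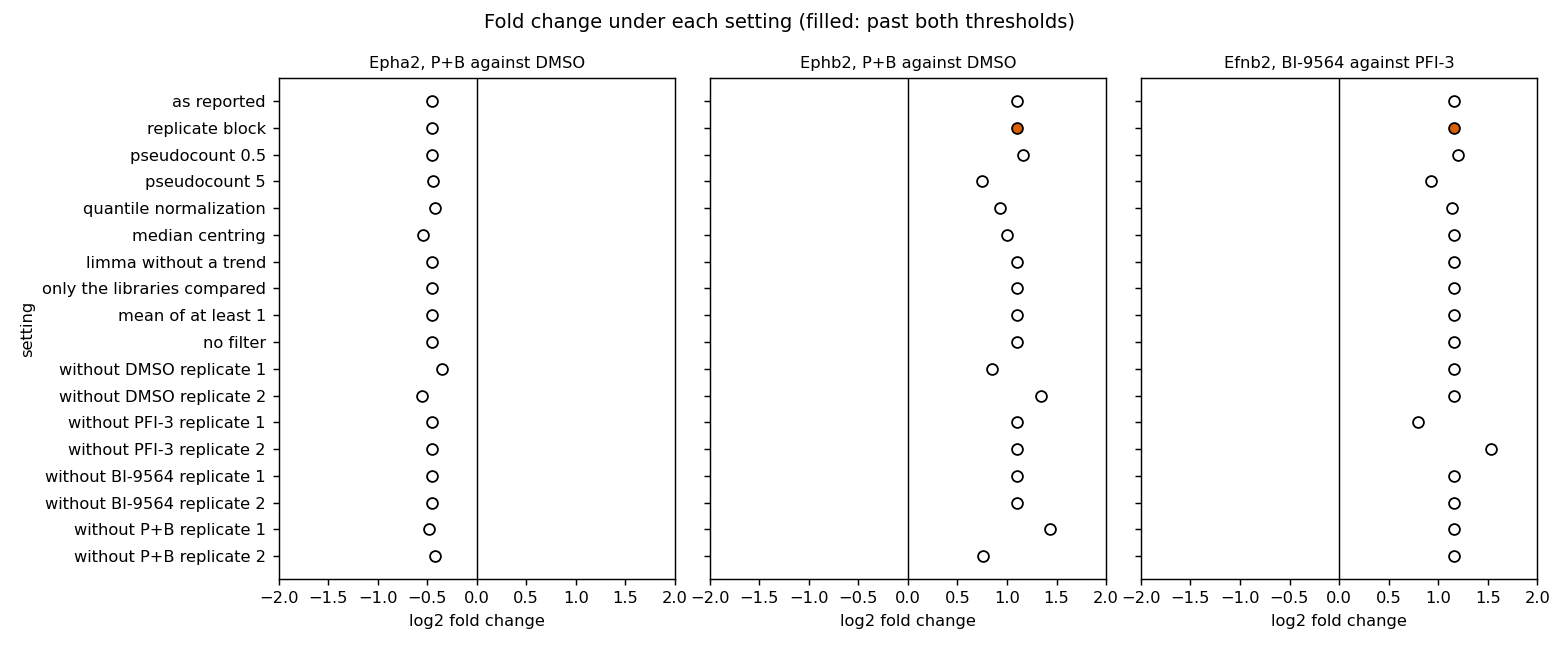
Log2 fold changes of *Epha2*, *Ephb2* and *Efnb2* under each processing alternative, with filled points where the gene was called. *Ephb2* in P+B against DMSO was called with the replicate block, as were 7.02% of tested genes. It lay at 0.75 to 1.17 in the settings that keep all libraries or all libraries compared.

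Of 58 genes that act with Eph receptors and ephrins (among them exchange factors, adaptors, tyrosine kinases, phosphatases, proteases and PDZ partners), 49 were tested, and in P+B against DMSO 0 were called higher and 4 lower, beside 1.28% and 2.72% of all tested genes. In direction, 27 were higher and 22 lower, with a median of 0.04, beside 0.06 over all tested genes. The list was chosen with earlier results of these data known, so these counts only describe it. *Src*, a kinase activated by Eph receptors, had 63 and 60 TPM under DMSO, 59 and 51 under PFI-3, 37 and 40 under BI-9564 and 33 and 36 under P+B. It fell by 0.82 on the log2 scale (SE 0.12, limma adjusted p = 0.0103), and the libraries with BI-9564 lay below all those without. *Inppl1*, which encodes the lipid phosphatase SHIP2 that binds EphA2, had 93 and 72 TPM under DMSO, 80 and 65 under PFI-3, 62 and 57 under BI-9564 and 43 and 44 under P+B. It fell by 0.90 (SE 0.15, limma adjusted p = 0.0176), with P+B the lowest group.

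*Mmp14*, a membrane protease that cuts EphA2, had 16 and 15 TPM under DMSO, 15 and 13 under PFI-3, 7 and 9 under BI-9564 and 8 and 6 under P+B, and fell by 1.06 (SE 0.23, limma adjusted p = 0.0414). *Abl2*, a kinase that remodels actin, had 52 and 67 TPM under DMSO, 47 and 51 under PFI-3, 51 and 56 under BI-9564 and 34 and 39 under P+B, and fell by 0.68 (SE 0.15, limma adjusted p = 0.0425). For *Src*, *Mmp14* and *Inppl1* all libraries with BI-9564 lay below all those without, as for 6.04% of all tested genes. The contrast of these libraries, added after the values were seen, called them lower, as it did 1.99% of tested genes. In that order the log2 differences were -0.66, -0.90 and -0.59 (limma adjusted p = 0.00701, 0.0199 and 0.0208). With no filter on low values 1 of them was called. For *Abl2* only the P+B libraries lay below the rest, and the share of all tested genes with that split was not computed. *Src* also fell in P+B against PFI-3, by 0.66 (limma adjusted p = 0.0474), a call that was lost without any single one of the 8 libraries. None of the 49 was called with PFI-3 or BI-9564 alone, against the 4 in P+B against DMSO. Of these 4 calls, 0 held without DMSO replicate 1 or either P+B replicate, 1 without DMSO replicate 2 and 2 without any other single library, and 0 held with the DMSO and P+B libraries alone in the fit.

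**Figure D5:**
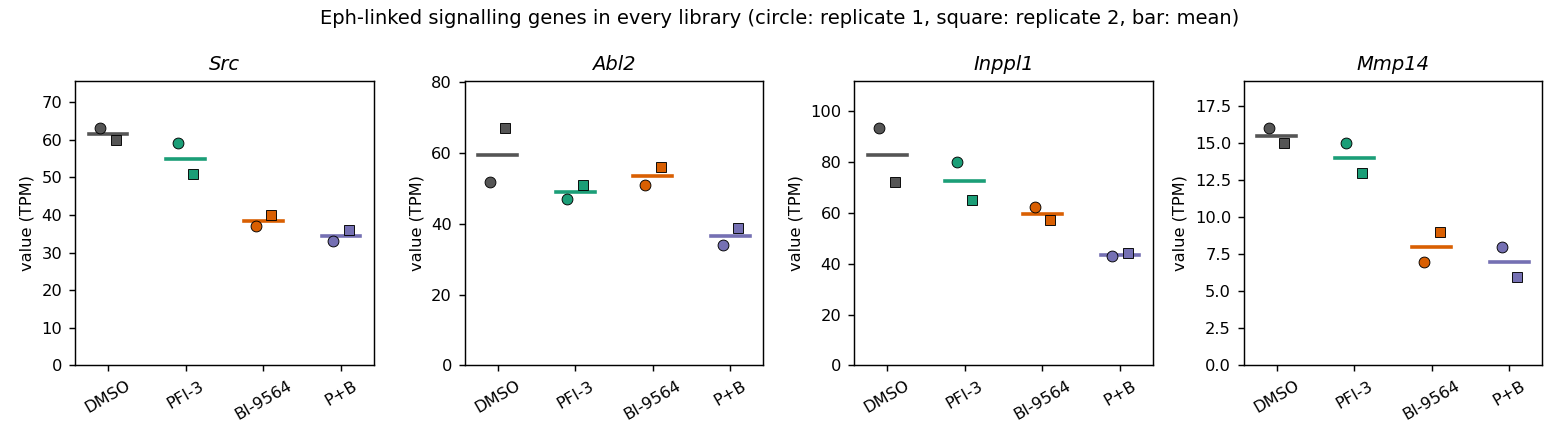
Values of *Src*, *Abl2*, *Inppl1* and *Mmp14* in every library (TPM, vertical axes from 0), by treatment, with circles for replicate 1, squares for replicate 2 and bars for the mean. P+B is low for all 4 genes, with 33 and 36 TPM for *Src*.

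All 10 ESC markers passed the filter, and 9 fibroblast markers summed to 0 to 5 TPM, with 5 of them at 0 in every library. The 5 primitive endoderm markers did not pass. In the libraries with BI-9564, where *Ephb2* and *Efnb2* were higher, all 10 ESC markers were on average lower than in those without. Their median log2 difference was -0.23 (all genes 0.03), and 1 (*Tdgf1*) was called, beside 3.19% of tested genes. All 10 were on average higher under PFI-3 than under DMSO (median 0.36, all genes 0.02, 0 called beside 0%). They were also higher in the libraries with PFI-3 than in those without (median 0.27, all genes 0.02, 0 called beside 0.323%). In P+B against DMSO 5 were higher and 5 lower (median -0.02), and 1 was called, in the lower direction, beside 2.72% of tested genes. *Sox2*, *Nanog*, *Esrrb*, *Zfp42*, *Klf4*, *Tfcp2l1* and *Dppa5a* were also higher in replicate 1 than in replicate 2 of every group. *Lin28a* was lower in replicate 1 of every group, and *Pou5f1* and *Tdgf1* were mixed. Among all tested genes 12.8% were higher and 11.1% lower in this way. *Nanog* had 71 and 40 TPM under DMSO and 59 and 29 under BI-9564. Trophoblast markers summed to 12 to 13 TPM with DMSO, 17 to 18 with PFI-3, 14 to 20 with BI-9564 and 22 to 26 with P+B, and mesoderm and neural markers to 3 to 4, 2 to 5, 4 to 4 and 7 to 10 TPM. Single genes were low and uneven. With P+B against DMSO, *Cdx2* had 5 and 10 against 1 and 0 TPM and *Tfap2c* 11 and 8 against 8 and 5. *Eomes* had 6 and 8 against 4 and 7, and *Elf5* was at 0 in both groups. *T* had 4 and 3 against 0 and 1, and *Sox1* 2 and 3 against 1 and 1. *Pax6* had 1 and 3 against 2 and 2, and *Mixl1* 0 and 1 against 0 and 0. The part of all these markers in the member differences was not tested. *Jun* was higher in replicate 2 than in replicate 1 of every group (2159 to 3011 against 1569 to 2071 TPM), and endogenous and induced transcripts cannot be told apart. Within replicate 1 it had 1970 TPM under DMSO, 1570 under PFI-3, 2071 under BI-9564 and 1569 under P+B, and within replicate 2 it had 2877, 2227, 3011 and 2159 TPM, so that both groups with PFI-3 were below DMSO at each number. The part of *Jun* in the member differences was not tested. In these bulk samples, fewer cells of a type and less RNA per cell cannot be told apart either.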

How the data were processed

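RNA-seq was analysed from 8 libraries, 2 for each of 4 treatments. Libraries were poly-A selected per the labels and, per the submitters' processing notes, processed with bcl2fastq, Bowtie2 2.2.5 and RSEM 1.3.0 on mm10, and the annotation is not given in the sources used here. The authors deposited one table in which each value is a score, namely TPM made whole numbers. Whether they were rounded or truncated is not stated, and libraries summed to 991574 to 991897. Of 50600 rows, 33075 were at 0 throughout. TPM keeps no depth, so count tools such as the authors' DESeq2 were not used.

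The fit used limma 3.58.1 (R 4.3.3, eBayes with trend) on log2(value + 1) of genes averaging 5 or more, with Benjamini-Hochberg adjustment within each comparison. The main fit held the groups only and did not pair the libraries. An alternative fit took the replicate numbers to pair them, as a block. The difference between replicates correlated across all 6 pairs of groups (Pearson r over genes 0.143 to 0.236). The labels do not say what a number marks. Named genes were the 10 members, the other Eph and ephrin genes, and the signalling genes called. No member was called without the block, so no genes of like pattern were sought. Positions are from GENCODE M21 on GRCm38. The members and lists were chosen with earlier results of these data known. Alternatives were other pseudocounts (0.5 and 5), filters, scalings, a replicate block, no trend, fewer libraries in the fit, and leaving out each library.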

Additional observations from a re-analysis of the deposited data

How the results depend on the processing

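With the replicate number as a block, members called went from 0 to 1 in P+B against DMSO (*Ephb2*, 7.02% of tested genes called). They also went from 0 to 1 in BI-9564 against PFI-3 (*Efnb2*, 1.48% of tested genes). In the libraries with BI-9564 against those without, the count went from 0 to 2 (4.95% of tested genes). Without PFI-3 replicate 2 the latter count was 1 (*Efnb2*, 0.88, limma adjusted p = 0.0374), so leaving out a library gave 0 to 1. The cause was not tested. In the other comparisons 0 members were called under every alternative.

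Of 560 member values under settings other than leaving out a library, 551 kept their direction and side of the threshold and 5, all near 0, reversed. Under quantile normalization and median centring these were *Efna4* in PFI-3 against DMSO (-0.025 and -0.034) and *Ephb3* in P+B against PFI-3 (-0.056 and -0.035), and under quantile normalization *Epha2* in BI-9564 against DMSO (0.013). Of 512 member values with a library left out, 35 reversed. The ranges of log2 fold changes over the libraries left out were as follows. In P+B against DMSO they were -0.21 to 0.79 for *Epha1* and -0.16 to 0.034 for *Ephb4*. In PFI-3 against DMSO they were -0.23 to 0.0093 for *Epha2*, -0.30 to 0.19 for *Epha4*, -0.11 to 0.37 for *Ephb2*, -0.18 to 0.21 for *Efna4* and -0.73 to 0.0032 for *Efnb2*. In BI-9564 against DMSO they were -0.30 to 0.11 for *Epha1*, -0.13 to 0.071 for *Epha2* and -0.19 to 0.63 for *Efna4*. Against PFI-3, P+B gave -0.17 to 0.19 for *Ephb3*, and BI-9564 gave -0.038 to 0.20 for *Epha2*, -0.48 to 0.015 for *Epha4*, -0.22 to 0.080 for *Ephb4* and -0.21 to 0.62 for *Efna4*. Against BI-9564, P+B gave -0.11 to 0.89 for *Epha1*, -0.34 to 0.029 for *Epha4* and -0.21 to 0.61 for *Efna4*. For P+B against the sum of the single compounds they were -0.35 to 0.14 for *Epha4*, -0.13 to 0.55 for *Ephb2*, -0.25 to 0.11 for *Ephb3*, -0.22 to 0.60 for *Efna4* and -0.57 to 0.16 for *Efnb2*, and for the libraries with PFI-3 against those without, -0.23 to 0.020 for *Epha4*. A group left with 1 library was assumed to vary like the others.

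In P+B against DMSO the number of all genes called was 409, and it was 718 with the replicate block, 201 with no filter on low values and 0 with those 4 libraries alone in the fit, where 1962 genes had an unadjusted p under 0.05. Leaving out a library gave 68 to 268 genes in this comparison, 0 to 51 in P+B against PFI-3 (134 with all libraries), 0 to 7 in P+B against BI-9564 (20), 0 to 1 in BI-9564 against DMSO (11) and in BI-9564 against PFI-3 (11), 121 to 168 for the libraries with BI-9564 against those without (326) and 0 to 10 for those with PFI-3 (33). With no filter these comparisons gave 6, 0, 0, 0, 180 and 0 genes, and without a trend in limma 4, 2, 0, 0, 303 and 0. With the replicate block the number of genes called also went from 11 to 156 in BI-9564 against DMSO, from 134 to 351 in P+B against PFI-3, from 20 to 82 in P+B against BI-9564 and from 11 to 151 in BI-9564 against PFI-3, and it stayed at 0 in PFI-3 against DMSO by this block, with 1143 genes at an unadjusted p under 0.05 in limma. Depth and counting error are unknown, which limits members below 5 TPM most.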

Other observations

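Among the family genes too low for the main test, *Ephb6*, an EphB receptor without kinase activity, had 0 and 2 TPM under DMSO, 1 and 1 under PFI-3, 4 and 5 under BI-9564 and 2 and 5 under P+B. With the filter lowered to an average of 1 TPM, *Ephb6* in BI-9564 against DMSO stood at 1.66 on the log2(value + 1) scale (limma adjusted p = 0.310). *Epha7*, an EphA receptor of the developing nervous system, had 1 TPM in all 4 libraries without BI-9564, and 1 and 6 under BI-9564 and 2 and 6 under P+B (P+B against DMSO 1.2, limma adjusted p = 0.362). *Efna5*, a lipid-anchored ligand, had 2 and 3 TPM under DMSO, 3 in all 4 libraries with a single compound, and 1 in both P+B libraries (-0.79 against DMSO, limma adjusted p = 0.238). These 3 genes were chosen after their values were seen, and none passed the test.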
